A study of Mus musculus with 54 samples.

Results

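Alas1, Hmox1, Por, Cyb5r3, Nr1i3, Nr1i2, Ahr and Rxra encode the supply of haem to liver enzymes, the donors of electrons to those enzymes, and the nuclear and cytosolic receptors for foreign compounds. They were taken by name, as 8 of the 24346 genes in the expression table of the study, and all 8 passed the filter on low values. RNA was sequenced from 54 libraries of mouse liver of 3 genotypes at 6 zeitgeber times (ZT, hours after lights on) spaced 4 h apart, with 3 livers in each of 18 groups. RE mice carry a floxed STOP in the clock gene Bmal1 (symbol Arntl) together with Syt10-Cre, which is meant to restore Bmal1 in the suprachiasmatic nucleus, the central clock of the brain. KO mice carry the floxed STOP without Cre, and WT mice have Bmal1 in every tissue. RE and KO livers therefore share the STOP allele, and the comparison of RE with KO livers asks what a central clock with Bmal1 changes in a liver without it. How fully Syt10-Cre is limited to the suprachiasmatic nucleus is not given by the labels, and neither are the sex, the age and the treatment of the mice.

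Haem is built from glycine and succinyl-CoA, and the mitochondrial enzyme ALAS1 sets the rate of that path in liver. Cytochrome P450 enzymes hold haem and take their electrons from NADPH through POR, with cytochrome b5 and its reductase CYB5R3 as a second route, and HMOX1 opens the haem ring for its breakdown. CAR (Nr1i3) and PXR (Nr1i2) bind DNA with the retinoid X receptor RXRA and switch on genes for detoxification, Alas1 and Por among them, and AHR does so with ARNT. In mouse liver CAR, Alas1 and Por are known as outputs of DBP, TEF and HLF, the PAR bZIP factors that the clock drives.

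Values are FPKM, fragments scaled by transcript length and library size, and differences are on the log2(FPKM + 1) scale. A gene was called where limma's adjusted p (Benjamini-Hochberg over 10932 genes tested) was below 0.05, and p-values measure only the spread between these livers, since the labels say nothing more of how the replicates arose. Arntl itself lay at 7.60 to 15.5 FPKM in RE livers, 9.76 to 14.2 in KO livers and 0.202 to 10.3 in WT livers, but a value for the whole gene does not tell a transcript with the STOP from one without it and so does not check the genotype. Dbp, a direct target of BMAL1, averaged 1.62 ± 0.564 FPKM in RE livers, 1.81 ± 0.571 in KO livers and 23.3 ± 28.3 in WT livers (SD over 6 times, n = 18 each). Among hepatocyte markers Alb was listed at 0 in 2 RE, 1 KO and all 18 WT libraries, and Serpina1c in 6 RE, 2 KO and 0 WT libraries. The other 4 markers summed to 17218 to 29156 FPKM in RE livers, 16490 to 22198 in KO livers and 20068 to 28340 in WT livers, and no member was at 0 in any library. Alb encodes albumin, the main protein that hepatocytes secrete, and a 0 in this table can be a failed estimate. A step of handling or processing that differed between WT and the other libraries cannot be told apart from genotype in any comparison with WT. Liver 0 of WT at ZT0 stood apart by gut markers.

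Across the 8 genes the largest differences lay between WT livers and both mutant lines, and RE and KO livers had no called difference in level. Averaged over the 6 times, 6 of 8 genes differed between KO and WT livers (42.3% of all genes tested), and 5 of these were lower (20.2% of all genes) and 1 was higher (22.1%). The same counts, 6 of 8 (45.9% of all genes), 5 lower (21.7%) and 1 higher (24.2%), held between RE and WT livers. Both comparisons share the WT livers. Between RE and KO livers limma called 0 of 8 levels (0.192% of all genes). An unadjusted p under 0.05 was found for 1 of 8, and for 1451 of the 10932 genes tested.

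A 24 h rhythm, fitted as a cosine over the 6 group means, was called for 5 of 8 genes in RE livers (46.8% of all genes), 0 of 8 in KO livers (0.0366%) and 5 of 8 in WT livers (34.8%). In KO livers 1 of 8, Nr1i3, had an unadjusted p under 0.05, as did 1301 of the 10932 genes tested. Alas1, Nr1i3, Nr1i2 and Rxra were called in RE and in WT livers. Por was called in WT livers alone and Cyb5r3 in RE livers alone, although whether a rhythm differs between genotypes needs the separate test given for each gene. That test called 3 of 8 genes for KO against WT (9.06% of all genes), 1 of 8 for RE against WT (14.1%) and 1 of 8 for RE against KO (3.07%). A test for any change over the 6 times, whatever its shape, called 4 of 8 in RE livers (39.3%) and 4 of 8 in WT livers (23.5%). In KO livers it called 0 of 8 (0.0457%). There 1 of 8 had an unadjusted p under 0.05, as did 1218 of the 10932 genes tested.

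**Figure D1:**
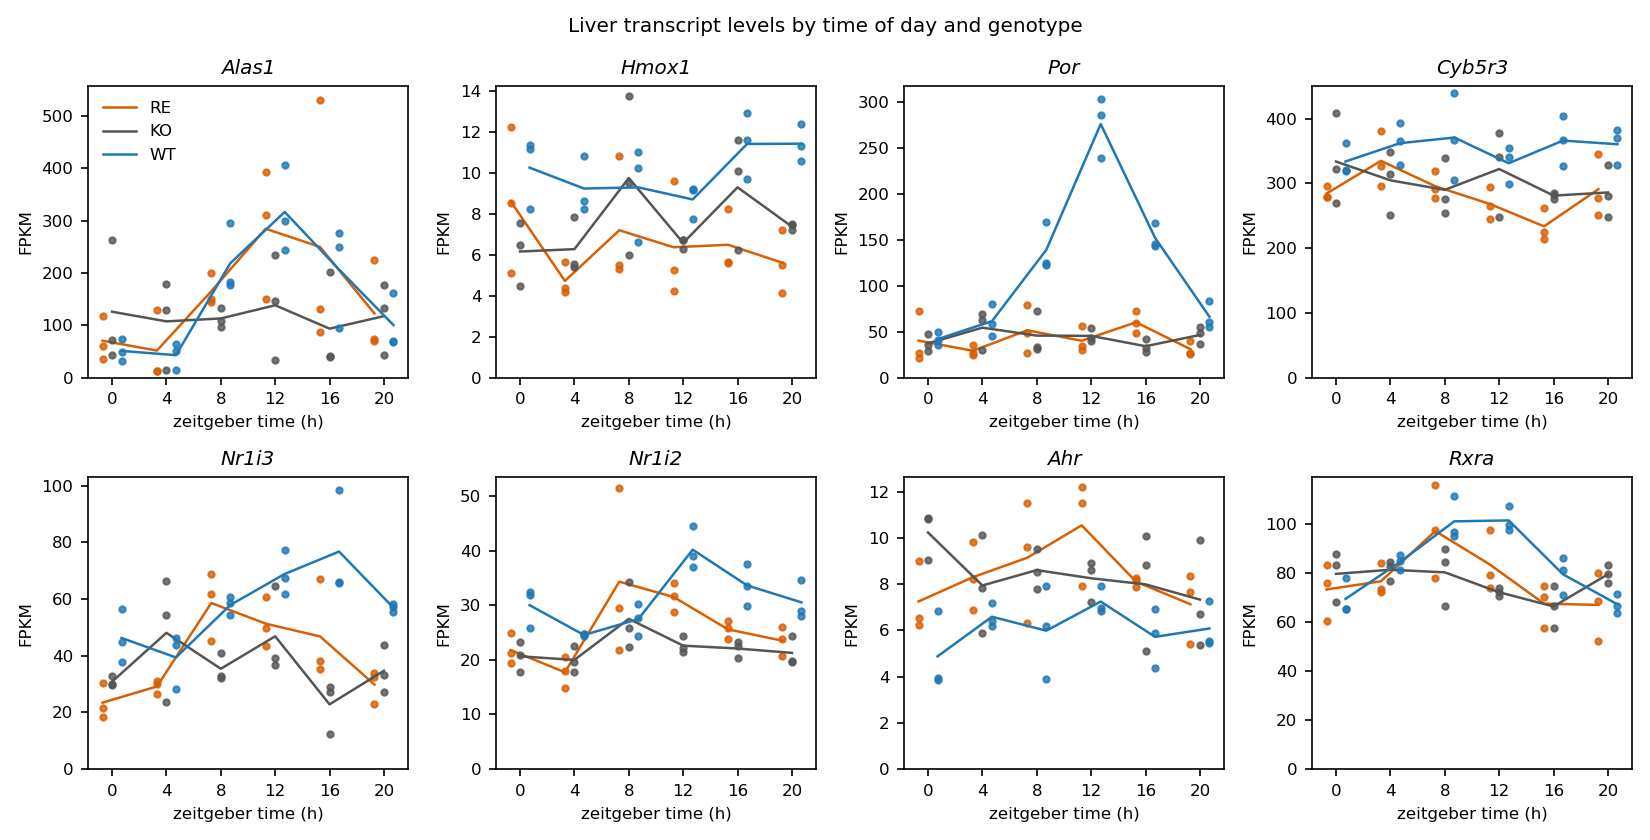
FPKM of each gene (vertical axis, from 0) against zeitgeber time in hours, with RE, KO and WT in 3 colours; points are single livers, lines join the means of 3 livers, and genotypes are set slightly apart along the time axis. Por of WT livers climbed to a mean of 276 FPKM at ZT12, where RE livers lay at 29.9 to 56.3 FPKM and KO livers at 39.8 to 53.8 FPKM.

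Haem supply is represented by Alas1, the first enzyme of the path. It rose and fell over the day in RE and WT livers, with amplitudes (mean to peak) of 1.37 ± 0.35 in RE livers (adjusted p = 0.00584) and 1.51 ± 0.35 in WT livers (adjusted p = 0.00294), each ± SE. The fitted peaks were at ZT13.7 in RE and ZT12.8 in WT livers, 0.843 h apart with an SE of 1.31 h. In KO livers the amplitude was 0.09 ± 0.35 (adjusted p = 0.991).

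At ZT12 the 3 livers read 310.4, 393 and 149 FPKM in RE mice, 235, 147 and 33.3 in KO mice, and 299, 407 and 243 in WT mice. At ZT4 they read 12.4, 12.9 and 129.5 FPKM in RE mice, 179, 129.6 and 13.6 in KO mice, and 13.8, 50.4 and 64.2 in WT mice. At ZT12 RE livers overlapped both other genotypes. All KO livers lay below all WT livers at that time, with the highest KO liver at 235 and the lowest WT liver at 243 FPKM. At ZT4 all genotypes overlapped, and each had at least 1 liver between 12.4 and 13.8 FPKM beside others several times higher. The highest of all 54 livers was an RE liver at ZT16 with 531 FPKM, whose companions had 131 and 86.7 FPKM. The rhythm of Alas1 was not called as different in any pair: the size of the difference was 1.45 for KO against WT (adjusted p = 0.126), 0.35 for RE against WT (adjusted p = 0.866) and 1.32 for RE against KO (adjusted p = 0.183). Without KO liver 2 at ZT4 the KO against WT difference was called (adjusted p = 0.0321). Its mean level was -0.32 for KO minus WT (95% interval -1.02 to 0.39, adjusted p = 0.489) and -0.07 for RE minus WT (-0.78 to 0.63, adjusted p = 0.881). The intervals were the widest of the 8 genes.

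Livers of 1 group differed more in Alas1 than in nearly any other gene. The pooled SD within groups was 1.13 in RE livers, 1.34 in KO livers and 0.73 in WT livers (log2), against medians of 0.19, 0.17 and 0.13 over the 6347 genes that averaged 5 FPKM or more. Of those genes, 99.1% had a smaller SD in RE, 99.4% in KO and 99.2% in WT livers. KO livers ran from 13.6 to 262 FPKM, with a median of 119 FPKM, so the flat fitted curve of KO stood for livers that were far apart at every time but ZT8, where they read 109, 132 and 97.5 FPKM. Por was also spread widely, with a pooled SD of 0.57 in RE, 0.45 in KO and 0.27 in WT livers, and Rxra was close to the typical gene at 0.23, 0.15 and 0.11 in those genotypes.

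**Figure D2:**
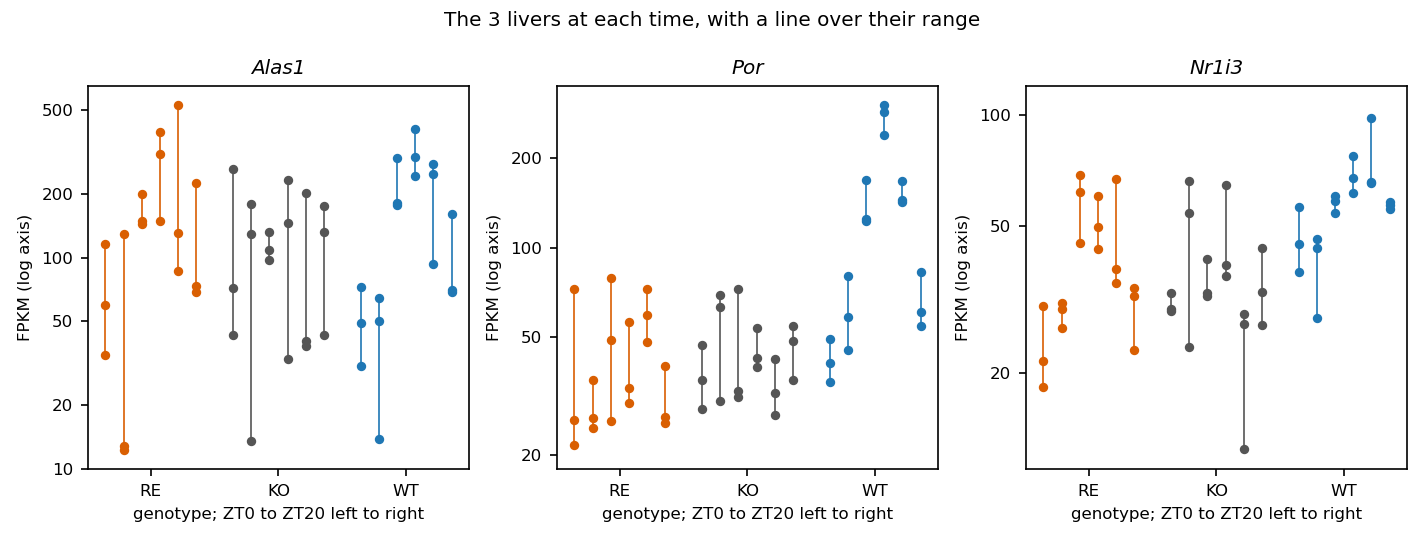
FPKM on a log axis of every liver for Alas1, Por and Nr1i3, with RE, KO and WT from left to right and, within each, ZT0 to ZT20 from left to right; points are single livers and each line joins the lowest and highest of 3. KO livers of Alas1 span 13.6 to 262 FPKM with no order in time, and WT livers of Por at ZT8, ZT12 and ZT16 lie between 123 and 303 FPKM.

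Genes of haem synthesis changed in both directions. Of 12 listed and tested, Alas1 included, 8 differed in level between KO and WT livers (42.3% of all genes), 4 higher and 4 lower, and likewise 8 between RE and WT livers (45.9%), 4 higher and 4 lower. The median differences were 0.02 for KO and -0.01 for RE, against 0.00 and 0.01 over all genes tested. Clpx, whose product unfolds ALAS enzymes in mitochondria, had the largest difference of the list, at 1.61 for RE minus WT and 1.53 for KO minus WT. Its mean levels were 163 ± 32.3 FPKM in RE, 152 ± 22.3 in KO and 61.4 ± 34.0 in WT livers (SD, n = 18 each). In WT livers Clpx had a rhythm of amplitude 1.22 with its peak at ZT22.7, far from that of Alas1. Uros, which closes the porphyrin ring, was higher by 0.52 in RE and 0.38 in KO livers than in WT livers, whereas the mitochondrial transporter Abcb10 was at -0.36 for RE and -0.34 for KO minus WT.

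Haem breakdown is represented by Hmox1, the inducible haem oxygenase. Its level was lower in both mutant lines, at -0.60 for RE minus WT (95% interval -0.82 to -0.39, adjusted p = 1.35e-05) and -0.39 for KO minus WT (-0.61 to -0.18, adjusted p = 0.00292). RE livers ran from 4.12 to 12.2 FPKM with a median of 5.55, KO livers from 4.48 to 13.8 with a median of 6.97, and WT livers from 6.61 to 12.9 with a median of 10.4. The ranges overlapped, and all 3 RE livers lay below all 3 WT livers at 3 of 6 times, as did all 3 KO livers at 4 of 6. These counts are descriptive only, since the share of all genes that separate so was not counted. At ZT20 the livers read 7.22, 5.50 and 4.12 FPKM in RE mice, 7.44, 7.19 and 7.49 in KO mice, and 12.4, 11.3 and 10.6 in WT mice. No rhythm of Hmox1 was called in any genotype, with amplitudes of 0.04 in RE, 0.17 in KO and 0.18 in WT livers.

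In liver Hmox1 is made by Kupffer cells, the resident macrophages, as well as by hepatocytes, and their markers moved with it. The 10 Kupffer cell markers summed to 60.7 to 273 FPKM in RE livers (median 105), 79.0 to 281 in KO livers (median 139) and 130.4 to 291 in WT livers (median 176), with no marker at 0 in every library of a genotype. In level 10 of 10 were lower in RE than in WT livers (21.7% of all genes) and 5 of 10 were lower in KO than in WT livers (20.2%). Their part in the Hmox1 result was not tested, and in bulk liver fewer cells of a type and less RNA per cell cannot be told apart. Of the 13 genes tested for haem breakdown, transport and haem-responsive control, Hmox1 included, 9 differed for RE against WT (2 higher, 7 lower, median -0.15; 45.9% of all genes) and 8 for KO against WT (2 higher, 6 lower, median -0.08; 42.3%). Bach1, a repressor that haem inactivates, stood at -0.76 for RE and -0.87 for KO minus WT. Blvrb, a biliverdin reductase, stood at -0.63 and -0.60 in the same order. Hmox2, the constitutive haem oxygenase, was higher by 0.38 in RE and 0.34 in KO livers than in WT livers, and in RE livers it had a rhythm of amplitude 0.36 with a peak at ZT12.4 that differed from KO (0.44, adjusted p = 0.00471) and from WT (0.38, adjusted p = 0.00143).

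The electron donors were lower in both mutant lines, and Por most of all. The level of Por over the day was -1.34 for RE minus WT (95% interval -1.63 to -1.05, adjusted p = 3.47e-10) and -1.22 for KO minus WT (-1.50 to -0.93, adjusted p = 3.75e-09), and RE minus KO was -0.12 (-0.41 to 0.17, adjusted p = 0.762). In WT livers it had a rhythm of amplitude 1.30 ± 0.14 with a peak at ZT12.2 (adjusted p = 1.58e-08), the smallest adjusted p of any rhythm among the 8 genes. The amplitude was 0.34 ± 0.14 in RE livers (adjusted p = 0.118) and 0.14 ± 0.14 in KO livers (adjusted p = 0.874). The rhythm differed from that of WT livers in both, by 0.98 for RE (adjusted p = 0.00263) and by 1.34 for KO (adjusted p = 4.06e-05).

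At ZT12 Por read 33.9, 56.3 and 29.9 FPKM in RE livers, 53.8, 42.5 and 39.8 in KO livers, and 303, 285 and 239 in WT livers. Every RE and KO liver lay far below every WT liver at that time, without overlap. At ZT0 the same gene read 21.7, 26.4 and 72.6 FPKM in RE livers, 28.7, 47.1 and 35.9 in KO livers, and 49.2, 35.2 and 40.8 in WT livers, and the genotypes overlapped. At single times, Por was called lower in KO than in WT livers at ZT8 (-1.68, 11.5% of all genes called), ZT12 (-2.58, 18.3%) and ZT16 (-2.14, 14.6%). It was called lower in RE than in WT livers at ZT8 (-1.54, 13.4%), ZT12 (-2.80, 18.9%), ZT16 (-1.34, 18.7%) and ZT20 (-1.08, 11.6%). The RE liver that stood highest at ZT0, with 72.6 FPKM, decides the RE rhythm: without it Por was called in RE livers (adjusted p = 0.00942).

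Cyb5r3, the NADH-cytochrome b5 reductase, was the most abundant of the 8 per length, averaging 285 ± 41.2 FPKM in RE, 303 ± 47.0 in KO and 354 ± 36.8 in WT livers (SD, n = 18 each). Its level was -0.32 for RE minus WT (adjusted p = 4.12e-05) and -0.23 for KO minus WT (adjusted p = 0.00213). At ZT16 it read 262, 215 and 224 FPKM in RE livers, 275, 286 and 282 in KO livers, and 327, 367 and 405 in WT livers, with no overlap between RE and either other genotype. A small rhythm was called in RE livers (amplitude 0.19 ± 0.06, peak ZT3.69, adjusted p = 0.0314), and it was lost on leaving out RE liver 0 at ZT4, liver 0 at ZT12 or liver 1 or 2 at ZT16, with adjusted p up to 0.122. Its rhythm in RE livers was not called as different from that in WT livers (0.19, adjusted p = 0.269) or KO livers (0.15, adjusted p = 0.467). Of the 6 genes listed for microsomal electron transfer, Por and Cyb5r3 included, 4 were lower and 0 higher in each mutant line than in WT livers (21.7% of all genes lower in RE and 20.2% in KO), with medians of -0.30 for RE and -0.20 for KO. Cyb5r1, another b5 reductase, was at -0.45 for RE and -0.41 for KO minus WT, Cyb5b at -0.29 for RE minus WT and Cyb5a at -0.14 for KO minus WT.

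CAR and PXR, the main receptors for drugs in the liver, were lower in both mutant lines. The level of Nr1i3 was -0.57 for RE minus WT (95% interval -0.81 to -0.34, adjusted p = 8.28e-05) and -0.69 for KO minus WT (-0.92 to -0.46, adjusted p = 5.36e-06). Its rhythm was called in RE livers (0.64 ± 0.12, peak ZT11.4, adjusted p = 0.000170) and in WT livers (0.44 ± 0.12, peak ZT14.5, adjusted p = 0.00929), with the RE peak 3.06 h earlier (SE 1.21 h). In KO livers the amplitude was 0.30 ± 0.12 (adjusted p = 0.398), with the fitted peak at ZT6.27 (SE 1.45 h). For KO minus WT the amplitudes differed by -0.14 (SE 0.16) and the fitted peaks by -8.20 h (SE 1.76 h). The KO rhythm was not called, so its peak is a description only.

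At ZT16 Nr1i3 read 35.2, 38.2 and 67.0 FPKM in RE livers, 27.2, 28.9 and 12.5 in KO livers, and 98.6, 65.6 and 66.1 in WT livers. All RE livers were above all KO livers at that time, KO was below WT without overlap, and the highest RE liver fell among the WT livers. At ZT0 it read 21.6, 18.3 and 30.5 FPKM in RE livers, 33.0, 29.9 and 29.6 in KO livers, and 44.7, 37.7 and 56.3 in WT livers. RE and KO livers overlapped there and all lay below the WT livers. The rhythm of Nr1i3 differed between KO and WT livers (0.66, adjusted p = 0.0196) and between RE and KO livers (0.64, adjusted p = 0.0490), and not by the test between RE and WT livers (0.46, adjusted p = 0.119). The difference between KO and WT was not called without WT liver 0 or KO liver 1 at ZT4, or WT liver 0 or KO liver 2 at ZT16 (adjusted p up to 0.0645). The difference between RE and KO was not called in 39 of the 54 fits that left out 1 library (adjusted p up to 0.0913). At ZT16 alone Nr1i3 was higher in RE than in KO livers by 1.03 (adjusted p = 0.0376), the only call among 48 tests of single times for that pair (from ZT0 to ZT20, 0%, 0%, 0.256%, 0.467%, 3.27% and 0% of all genes were called). That call was lost without KO liver 1, KO liver 2 or RE liver 2 at ZT16 (adjusted p up to 0.214).

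Nr1i3 lies on chromosome 1 at 171213970 to 171220701 on the plus strand (GRCm38, GENCODE M21) and shares 4691 bases with Tomm40l, a protein-coding gene on the other strand. Whether reads were counted by strand is not given, so reads of the overlap cannot be told apart. Tomm40l had a level of -0.14 for RE minus WT (adjusted p = 0.286) and -0.33 for KO minus WT (adjusted p = 0.00854), and rhythms of amplitude 0.36 in RE livers (peak ZT10.9) and 0.36 in WT livers (peak ZT13.5).

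Nr1i2 followed the same order at smaller size. Its level was -0.29 for RE minus WT (adjusted p = 0.000665) and -0.45 for KO minus WT (adjusted p = 1.24e-06). All 3 livers of each mutant line were below all 3 WT livers at 5 of 6 times. How often other genes separate in this way was not counted, so that count is descriptive only. At ZT12 it read 34.2, 28.7 and 31.7 FPKM in RE livers, 24.3, 22.2 and 21.4 in KO livers, and 44.5, 39.0 and 37.1 in WT livers, without overlap among the 3 genotypes. The rhythm was called in RE livers (0.33 ± 0.07, peak ZT12.2, adjusted p = 0.000901) and in WT livers (0.25 ± 0.07, peak ZT14.8, adjusted p = 0.0162). Without WT liver 0 at ZT16 the WT rhythm was not called (adjusted p = 0.0540). The RE peak was 2.58 h earlier than that of WT (SE 1.34 h). In KO livers the amplitude was 0.14 ± 0.07, and the rhythm of Nr1i2 was called as different in no pair (adjusted p = 0.262 for KO against WT, 0.295 for RE against WT and 0.282 for RE against KO).

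Ahr, the receptor for dioxin-like compounds, was the member with a higher level in both mutant lines. It was higher by 0.41 in RE than in WT livers (95% interval 0.22 to 0.60, adjusted p = 0.000368) and by 0.41 in KO than in WT livers (0.22 to 0.59, adjusted p = 0.000420). RE livers ran from 5.40 to 12.2 FPKM (median 8.19), KO livers from 5.09 to 10.8 (median 8.72) and WT livers from 3.84 to 7.93 (median 6.29), ranges that overlap. At ZT0 it read 8.99, 6.51 and 6.24 FPKM in RE livers, 10.8, 10.8 and 9.02 in KO livers, and 3.93, 3.84 and 6.85 in WT livers. There KO livers were all above WT livers, and the call at that time was for KO minus WT (0.97, adjusted p = 0.00385, 8.65% of all genes called). No rhythm was called for Ahr in any genotype.

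Rxra, the shared partner of CAR and PXR, was called in rhythm but not in level, which was -0.12 for RE minus WT (95% interval -0.23 to -0.00098, adjusted p = 0.0922) and -0.12 for KO minus WT (-0.23 to -0.0032, adjusted p = 0.0920). These lie near the threshold: KO minus WT was called under 3 of 8 other settings, and RE minus WT under 1 and without RE liver 1 at ZT8, liver 1 at ZT12 or liver 2 at ZT20 (adjusted p = 0.0404, 0.0492 and 0.0396). Its rhythm was called in RE livers (0.24 ± 0.06, peak ZT8.02, adjusted p = 0.00286) and in WT livers (0.33 ± 0.06, peak ZT9.57, adjusted p = 9.44e-05). KO livers had an amplitude of 0.13 ± 0.06 (adjusted p = 0.506), and KO differed from WT in the rhythm test (0.37, adjusted p = 0.00542). At ZT12 it read 79.3, 97.5 and 74.1 FPKM in RE livers, 73.8, 72.2 and 70.7 in KO livers, and 107, 99.8 and 97.6 in WT livers. All mutant livers lay below the lowest WT liver, with RE liver 1 just under it. The rhythm of Rxra was not called as different for RE against WT (0.14, adjusted p = 0.411) or RE against KO (0.25, adjusted p = 0.125).

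**Figure D3:**
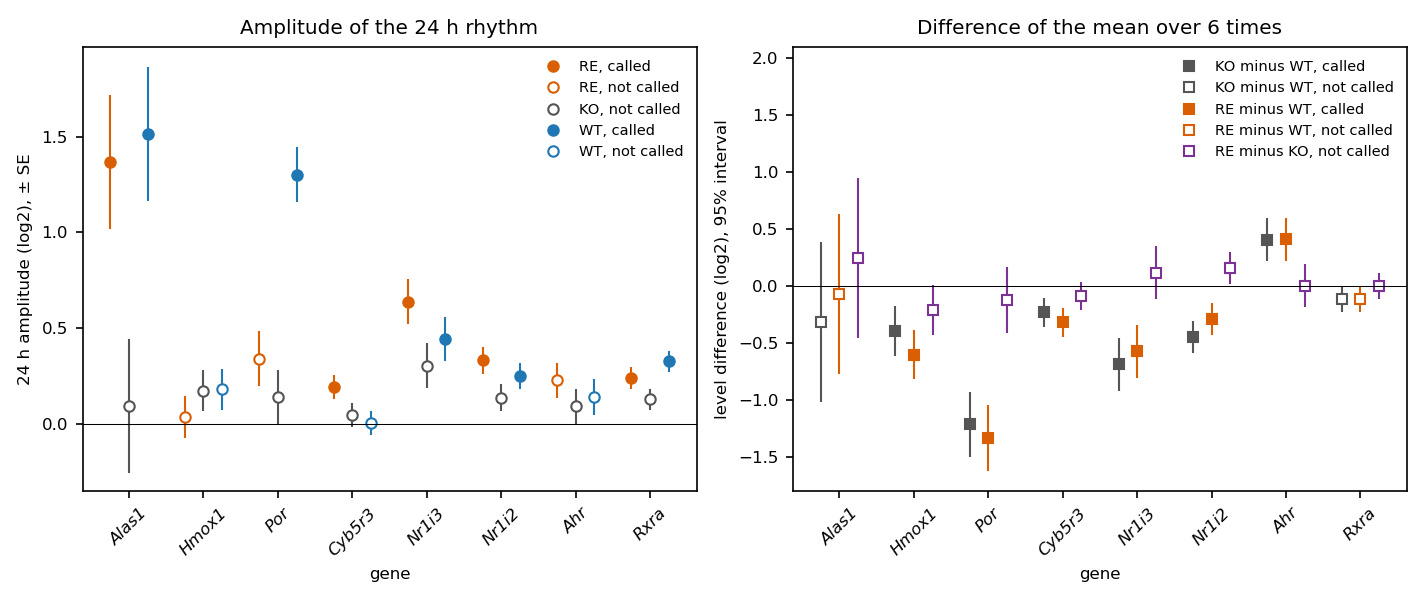
Left, amplitude of the 24 h rhythm in log2 with its SE for each gene in RE, KO and WT livers; right, difference of the mean over 6 times in log2 with its 95% interval for KO minus WT, RE minus WT and RE minus KO. Filled symbols passed the test; Por has the largest level differences, at -1.34 for RE and -1.22 for KO minus WT, and Ahr is the member above 0 with filled symbols.

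Over the single times, 9 of 48 tests (8 genes at 6 times) were called for KO against WT, where 8.65%, 11.4%, 11.5%, 18.3%, 14.6% and 9.37% of all genes were called from ZT0 to ZT20. For RE against WT 10 of 48 were called, where 9.39%, 7.67%, 13.4%, 18.9%, 18.7% and 11.6% of all genes were. Beyond Por these were Hmox1 lower in RE livers at ZT4, ZT16 and ZT20, Cyb5r3 lower in RE at ZT16, Nr1i3 lower in RE at ZT0 and ZT20 and in KO at ZT16, Nr1i2 lower in KO at ZT0, ZT12 and ZT16, Ahr higher in KO at ZT0 and Rxra lower in KO at ZT12. Several of these calls were lost with 1 liver left out. Hmox1 at ZT4 was lost on leaving out any 1 of its RE or WT livers (adjusted p up to 0.147). Hmox1 at ZT16 and ZT20 and Nr1i3 in RE livers at ZT0 and ZT20 each needed certain livers. So did Nr1i2 at ZT16 and Por in RE livers at ZT20. Nr1i2 at ZT0 was lost even without some livers of other times. It was also lost with no filter (adjusted p = 0.0618) and without the WT liver rich in gut markers (0.174). Alas1 was called at no single time in any pair, and 0 of its tests had an unadjusted p under 0.05.

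The sequence before the start of Por, Nr1i3 and Rxra is shown because their rhythms differed between KO and WT livers. Promoters of the 5 members that RefSeq's table (GRCm38.p6) holds were searched on both strands, over the 250 bases before each start, for the E-box CACGTG, the D-box forms TTATGTAA and TTACGTAA, the nuclear receptor half-site AGGTCA, the AHR core GCGTG and the NRF2 form TGACNNNGC. Among 32851 promoters these occur in 6.021%, 0.819%, 0.113%, 14.024%, 28.157% and 10.161%. Neither D-box form was in any of the 7 windows of the 5 members. Capitals mark GCGTG in Por, CACGTG in Nr1i3 and AGGTCA or its reverse complement in Rxra.
Por, chr5:135688895-135689035, plus strand: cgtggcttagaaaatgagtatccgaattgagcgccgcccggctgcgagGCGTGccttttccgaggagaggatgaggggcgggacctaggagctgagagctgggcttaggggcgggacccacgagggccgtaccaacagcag
Nr1i3, chr1:171213720-171213969, plus strand: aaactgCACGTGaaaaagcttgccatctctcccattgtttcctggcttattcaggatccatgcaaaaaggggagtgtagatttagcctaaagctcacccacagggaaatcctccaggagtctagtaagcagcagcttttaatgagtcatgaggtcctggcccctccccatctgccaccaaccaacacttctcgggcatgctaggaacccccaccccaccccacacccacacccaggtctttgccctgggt
Rxra, chr2:27709042-27709291, plus strand: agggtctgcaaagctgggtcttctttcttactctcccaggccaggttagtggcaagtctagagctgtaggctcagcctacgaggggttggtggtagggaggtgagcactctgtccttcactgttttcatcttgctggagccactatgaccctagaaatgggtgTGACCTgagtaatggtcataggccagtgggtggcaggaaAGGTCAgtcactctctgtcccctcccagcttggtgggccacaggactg
Por has 3 GCGTG matches, beginning 202, 62 and 24 bases before the start, and only that at 202 lies in the stretch printed. The Nr1i3 match begins 244 bases before the start and the Rxra matches begin 87 and 48 bases before the second of 2 annotated starts. A GCGTG match also begins 222 bases before a start of Alas1, whose sequence is not printed. These are matches of letters in these windows and say nothing of binding.

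The PAR bZIP factors, NFIL3 and REV-ERBs are clock outputs known to act on these genes. In RE livers limma called a rhythm for 0 of 6 (46.8% of all genes). There 2 of 6 had an unadjusted p under 0.05, as did 5957 of the 10932 genes tested. In KO livers it called 0 of 6 (0.0366%), with 0 at that unadjusted p, and in WT livers 6 of 6 (34.8%). The rhythm differed from WT for 6 of 6 in KO livers (9.06% of all genes) and 6 of 6 in RE livers (14.1%). Dbp peaked at ZT9.15 in WT livers with an amplitude of 2.87, Tef at ZT11.6 with 1.29, and Hlf at ZT12.4 with 0.50. Alas1, Nr1i3, Nr1i2 and Rxra were called in RE livers, where 46.8% of all genes were. The part of these factors in the rhythms of the members was not tested.

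Listed targets of CAR and PXR changed in both directions. For KO against WT, 15 of 18 differed (42.3% of all genes), 10 higher and 5 lower (median 0.32, against 0.00 over all genes tested), and for RE against WT 12 of 18 did (45.9%), 8 higher and 4 lower (median 0.30). Cyp2b10, the classical CAR target, averaged 75.3 ± 27.2 FPKM in RE livers, 73.7 ± 42.9 in KO livers and 4.45 ± 4.18 in WT livers (SD, n = 18 each), differences of 4.02 and 3.82 from WT. Cyp2c55 ran from 12.0 to 71.6 FPKM in RE livers, 23.1 to 102 in KO livers and 1.39 to 4.88 in WT livers, without overlap between WT and either other genotype. Sult1e1, an oestrogen sulphotransferase, ran from 3.93 to 106 FPKM in RE livers, 3.93 to 246 in KO livers and from 0 to 1.00 in WT livers, without overlap between WT and either other genotype. Cyp2a5, a coumarin hydroxylase, went the other way, averaging 72.3 ± 27.8 FPKM in RE, 87.4 ± 35.6 in KO and 422 ± 258 in WT livers, and in WT it had a rhythm of amplitude 1.43 with a peak at ZT13.5, near those of Por and Alas1. Cyp3a11, the classical PXR target, was not called in level (-0.01 for RE and -0.10 for KO minus WT). Genes of the Cyp2b and Cyp2c families share much sequence, so their reads may have been split among copies.

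Of 8 AHR targets listed, 4 could be tested, and 1 of 4 differed in level in each mutant line. Over all genes 42.3% differed for KO and 45.9% for RE against WT. The gene was Ugt1a6a, which was lower (-0.19 for RE and -0.22 for KO minus WT) and which shares exons with other Ugt1a genes. Cyp1a2 was at 0.04 for RE and 0.06 for KO minus WT and was not called.

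Among 17 tested receptors, partners and cofactors, members included, 7 differed for KO against WT (3 higher, 4 lower, median -0.06), where 42.3% of all genes did, and 5 for RE against WT (2 higher, 3 lower, median -0.05), where 45.9% did. Neither count exceeds the share over all genes. Of 11 tested partners of the retinoid X receptors, 7 differed for KO against WT (2 higher, 5 lower; 42.3% of all genes) and 6 for RE against WT (2 higher, 4 lower; 45.9%). Ppard was higher by 1.53 in RE and 1.64 in KO than in WT livers, Thra was higher by 0.52 and 0.59 in the same order, and Ppara was at -0.77 and -0.85.

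**Figure D4:**
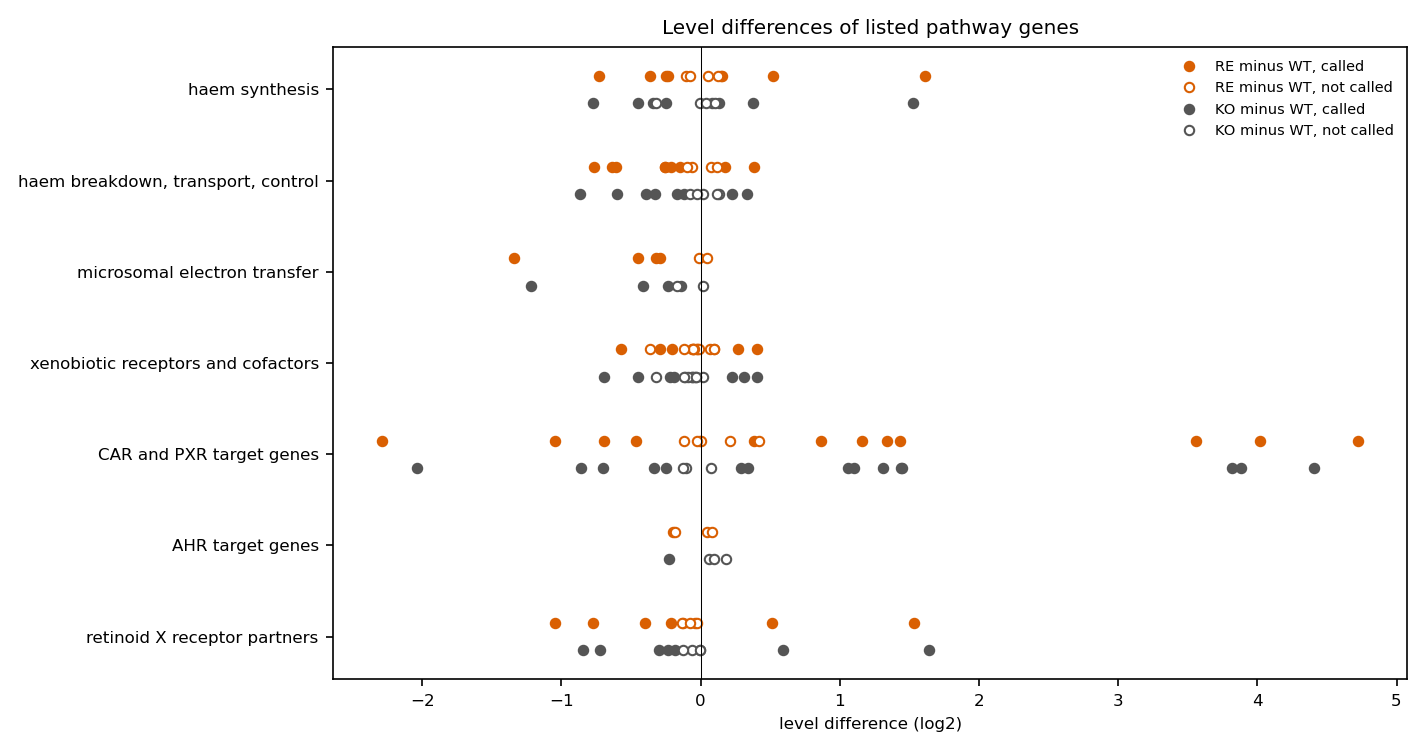
Level difference from WT (log2, horizontal axis) of each tested gene in 7 fixed lists, RE above KO in each row; filled points passed the test and open points did not. CAR and PXR targets spread widest, with Sult1e1 at 4.72 for RE and 4.40 for KO and Cyp2a5 at -2.29 and -2.04.

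Per transcript length, the mean level in WT livers ran from Cyb5r3 (354 FPKM) through Alas1 (156), Por (123), Rxra (84.0), Nr1i3 (57.7), Nr1i2 (31.1) and Hmox1 (10.1) to Ahr (6.08). In RE livers Por averaged 42.0 FPKM and Nr1i3 39.9, and in KO livers 43.8 and 36.4, so the wide gap between them in WT livers was missing in both. The gene whose 18 group means were most like those of Por was Nmrk1 (Pearson's r 0.949), and Gys2 was also among the 3 most alike (0.945). For Alas1 it was Usp2 (0.893), then Lpin1 (0.882) and Tsku (0.875), for Nr1i3 Pex11a (0.925), for Nr1i2 St3gal5 (0.906), and for Rxra Wipi2 (0.931). Hmox1 was most like Ccbl2 (0.843), Cyb5r3 most like Tmem184b (0.915) and Ahr most like Cdkn2aipnl (0.875). These are descriptions over 18 groups, which share their libraries.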

How the data were processed

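TopHat and the mm10 build are named in the submitters' processing notes. Versions, the tool behind the FPKM values, its annotation and strand handling: not given in the sources used here. For each gene and library the deposited table gives FPKM, scaled by the authors. It holds no counts, so depth is unknown and precision rests on the spread between livers. Columns were assigned to a genotype and time, not to a single sample, because their numbers 0 to 2 are not the replicate numbers of the titles.

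Values were analysed as log2(FPKM + 1), which understates changes of low genes. The 10932 genes that averaged 1 FPKM or more in at least 1 of the 18 groups were tested. The 18 group means were fitted in 1 limma 3.58.1 model in R 4.3.3 (eBayes with trend, 36 residual degrees of freedom), with Benjamini-Hochberg adjustment over all genes tested and calls at 0.05. A rhythm was tested by the F test of its cosine and sine contrasts over 24 h, a rhythm difference by the same contrasts between genotypes (sized by the length of that vector), and a level by the mean over 6 times. The scripts were tested on simulated data. The 8 alternatives were median-ratio scaling, no filter or one at 5 FPKM, a pseudocount of 0.1, genotypes compared alone, no trend, weights per genotype and no library rich in gut markers, and each of the 54 libraries was left out in turn.

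Named were all members, Cyp2b10, Cyp3a11 and Cyp1a2, up to 3 genes per list and comparison with the smallest adjusted p among those called, and of the genes averaging 5 FPKM or more, the 3 best correlated with each member, of which 1 is not reported here. Arntl, Tomm40l, the marker genes Alb and Serpina1c, and Tef and Hlf, whose rhythms are given for WT livers, were named after values were seen. Members and lists were chosen with earlier results of these data known. Coordinates are from GENCODE M21 and promoters from RefSeq (GRCm38.p6), which held 5 of 8 members; the Por window ends before an annotated untranslated region.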

Additional observations from a re-analysis of the deposited data

Results flagged for a closer look

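In 5 cases the difference between genotypes was called as changing with the time of day. For KO against WT livers (9.06% of all genes called) these were Por, whose rhythm difference was 1.34 on the log2 scale, Nr1i3 with 0.66 and Rxra with 0.37. For RE against WT livers (14.1%) it was Por with 0.98. For RE against KO livers (3.07%) it was Nr1i3 with 0.64, at an adjusted p by limma of 0.0490. Both Nr1i3 calls were lost with certain single libraries left out, at adjusted p up to 0.0645 for KO against WT and 0.0913 for RE against KO. The latter was lost in most such fits.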

How the results depend on the processing

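No called difference changed sign under the 8 other settings or with any of 54 libraries left out. Levels near 0 that were not called did: Alas1 for RE minus WT ran from -0.25 to 0.02 with 1 library left out, and for RE minus KO Ahr reached -0.0073 and Rxra -0.0086 under other settings and -0.04 and -0.02 with 1 library left out. Uncalled differences at single times changed sign as well. No paired analysis was possible because the column numbers are not the replicate numbers of the titles and each library is another liver. Of 96 values over the members, 86 stayed on their side of the threshold under all other settings and 82 with every library left out. The single call for the rhythm of RE against KO fell to 0 under no filter, median-ratio scaling, genotypes compared alone, no trend, weights per genotype, or without the gut-rich library, and ranged from 0 to 1 with 1 library left out. The single call by time for RE against KO fell to 0 under no filter, genotypes alone or weights, and ranged from 0 to 1. Calls of any change over time in RE livers were 1 with genotypes alone and 2 with weights, and in WT livers ranged from 2 to 5. Rhythm calls for RE against WT were 2 with genotypes alone. Cyb5r3 (adjusted p = 0.0925 with weights) and Rxra (0.0581 with genotypes alone) each lost the rhythm call in RE livers. Rxra levels were called under median-ratio scaling (adjusted p = 0.0329 for RE minus WT and 0.0483 for KO minus WT), and for KO minus WT also with genotypes alone (0.0280) and with weights (0.04998). Over all genes, calls changed by more than 1.5 times as follows. Genotypes alone gave 3107 rhythms in RE livers against 5116, any change in 1161 RE and 4396 WT genes against 4298 and 2573, and 2 rhythm differences for RE against KO against 336. Weights gave any change in 2435 RE and 5130 WT genes, 1494 rhythm differences for KO against WT against 990, and 38 for RE against KO. No filter gave 191 of these, and leaving out 1 library gave 145 to 686, 0 to 161 rhythms in KO livers against 4, and 13 to 172 levels for RE against KO against 21. Those levels were 0 with genotypes alone and 10 with weights. Any change in KO livers, 5 genes, became 16 with no filter, 2 with a filter at 5 FPKM or no trend, 1 with genotypes alone, 0 with weights, and 0 to 15 with 1 library left out. Rhythms in KO livers became 1 with genotypes alone. Their causes were not tested. With depth unknown, no counting error could be given.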

Other observations

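Markers of other liver cells were read in level over the same livers. For KO against WT, where 42.3% of all genes were called, limma called 3 of 6 hepatocyte (1 higher, 2 lower), 4 of 8 pericentral (2 higher, 2 lower), 5 of 8 periportal (3 higher, 2 lower) and 3 of 7 endothelial markers (1 higher, 2 lower). It also called 1 of 7 stellate cell and fibroblast markers (higher), 2 of 5 bile duct (higher), 1 of 4 red cell (lower) and 5 of 5 gut markers (lower, list median -0.56). For RE against WT, where 45.9% of all genes were called, it called 3 of 6 hepatocyte (1 higher, 2 lower), 4 of 8 pericentral (2 higher, 2 lower), 1 of 8 periportal (higher) and 4 of 7 endothelial markers (1 higher, 3 lower). It also called 0 of 7 stellate cell and fibroblast markers (Des had the lowest unadjusted p, 0.0831), 2 of 5 bile duct (higher), 2 of 4 red cell (lower, list median -1.01) and 3 of 5 gut markers (lower, list median -0.36). Alb and Serpina1c among the hepatocyte markers are listed at 0 in some libraries.

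Across the 18 KO livers, pooled over 6 times, Alas1 and Por were related with Pearson's r of 0.596 (permutation p = 0.00962, adjusted p = 0.0673 over 7 relations) and Spearman's rho of 0.583 (permutation p = 0.0125, adjusted p = 0.0877). Without the 2 livers farthest from the median of Alas1, r was 0.590 (permutation p = 0.0181, adjusted p = 0.127). None of the 7 relations of Alas1 with the other members passed the adjustment. These relations were chosen after values were seen, and the permutations shuffled livers across times, so the p-values are descriptive only.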
